A study of Mus musculus with 14 samples.

Results

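Spp1, the gene of the secreted phosphoprotein osteopontin, was followed across sorted mouse lung macrophages after bleomycin injury. It is 1 of 43432 genes in the deposited table, taken by its symbol, and was described over all 14 RNA-seq libraries in 5 groups. The gene was chosen by its measured levels in these same libraries, so its own differences are described with an SE and carry no test. Bleomycin is a DNA-damaging drug that injures the lung and leaves scar tissue when it enters the airway. Male 129S1 mice aged 10 to 12 weeks received bleomycin (3 U/k) or water into the trachea, and SiglecF+ CD11c+ lung cells were sorted by their surface level of MHC class II (MHCII). SiglecF and CD11c together mark alveolar macrophages. The groups were MHCII-low cells after water (2 libraries, replicates 1 and 3), MHCII-low cells 2 weeks and 4 weeks after bleomycin (3 libraries each) and MHCII-high cells at the same 2 times (3 libraries each). No genetic change is named in the labels for any group, and the time after water is not given. MHCII-high cells of water-treated mice were not analysed here, so both MHCII-high groups can be set only against MHCII-low controls. The labels do not say whether replicates came from separate mice or pools, so p-values measure the spread between these samples, which may be technical.

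Osteopontin belongs to the SIBLING family of acidic phosphoproteins, best known from bone and teeth. Outside the skeleton it is made by activated macrophages, and other cells bind it through integrins and CD44. Proteases such as thrombin and matrix metalloproteinases cut the protein and change which integrins can bind it. Macrophages rich in Spp1 RNA have been described in fibrotic lung.

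In the deposited table Spp1 (ENSMUSG00000029304) lies on chromosome 5 from 104435118 to 104441050, on the plus strand of GRCm38, with an exon length of 1648 bases. GENCODE M21 gives the same span, with 7 transcripts that are all protein-coding, and the table does not separate them. RefSeq (GRCm38.p6) lists 2 promoter entries for the gene. The 250 bases before the RefSeq transcription start at position 104435111 are shown because the level of this gene moved over a wide range while its genomic neighbours passed no test against control. The window is chr5:104434861-104435110, plus strand, 5′ to 3′, and capitals mark matches to searched motifs.

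Spp1 promoter: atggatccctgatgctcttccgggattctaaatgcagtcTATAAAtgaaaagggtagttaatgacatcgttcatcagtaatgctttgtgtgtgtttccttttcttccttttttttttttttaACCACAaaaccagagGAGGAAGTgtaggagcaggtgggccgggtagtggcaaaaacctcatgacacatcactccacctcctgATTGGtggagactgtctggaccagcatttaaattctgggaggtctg

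On both strands, 9 motifs were searched in this window and in the same 250-base window of 32851 RefSeq promoters. TATAAA was found 211 bases before the start, and 12.4% of promoters hold it. The RUNX motif ACCACA was found at 128 bases before the start (4614 of 32851 promoters hold it). The ETS motif of the PU.1 type, GAGGAAGT, was found at 113 bases before it (2.44% of promoters). CCAAT was found on the reverse strand at 46 bases before the start, printed as ATTGG, and is held by 33.8% of promoters. The AP-1 motif TGANTCA (6.75% of promoters), the E-box CACGTG (6.02%) and the HIF motif ACGTG, which lies inside that E-box (16.6%), had no match. The letters of STAT TTCNNNGAA (7.02%) and SP1 GGGCGG (32.7%) were also not in this window. These matches describe the letters only, since no binding was measured.

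Depth was 15106415 to 88059606 recovered reads per library, of which mitochondrial ribosomal RNA took 3.12% to 28.99%. Genes of the gate were read in all libraries, Siglecf at 3056 to 9551 normalized counts and Itgax (CD11c) at 25185 to 44133. Siglecf was lower in MHCII-high than in MHCII-low cells without overlap at both times, while Itgax overlapped. The Siglecf log2 difference was -0.95 ± 0.15 at 2 weeks and -1.02 ± 0.15 at 4 weeks (limma, adjusted p = 8.6e-04 and 3.9e-04). Of 10 alveolar macrophage gate genes, 4 passed as lower in MHCII-high cells at 2 weeks, 3 at 4 weeks and 0 as higher. Over all 17390 genes tested, 499 passed at 2 weeks, 398 of them as higher and the rest as lower. At 4 weeks 434 passed, 341 of them as higher. The part of this in the Spp1 levels was not tested. The 5 sorted MHCII genes summed to 1302 to 1680 normalized counts in controls, to 4038 to 12501 in MHCII-low libraries at 2 weeks and to 3112 to 5944 at 4 weeks. In MHCII-high libraries they summed to 149439 to 221616 at 2 weeks and to 91730 to 179976 at 4 weeks, above every MHCII-low library. Within MHCII-low cells 4 of the 5 were higher than in control at 2 weeks, where 1.48% of all genes were, and 1 of 5 at 4 weeks (limma, adjusted p under 0.05). The invariant chain gene Cd74 differed by 2.29 ± 0.37 at 2 weeks (adjusted p = 9.1e-04) and H2-Aa by 2.82 ± 0.37 (adjusted p = 8.4e-05). The part of this shift within the MHCII-low gate in the Spp1 levels was not tested. On the second principal component, which held 12.3% of the variance, 1 library was far from the rest. It was replicate 3 from MHCII-high cells at 4 weeks, scoring 146.4 against a range of -73.5 to 44.7 in all others. The Spp1 differences and the main calls on that group are also given without it.

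Spp1 was far above control at 2 weeks in both MHCII-low and MHCII-high cells, and at 4 weeks it lay closer to control in MHCII-low than in MHCII-high cells. In the water controls it stood at 6964 and 7388 normalized counts, the authors' counts after scaling between libraries. At 2 weeks it stood at 105619.8, 79824 and 101919.9 in MHCII-low libraries and at 92775, 103351 and 123219.6 in MHCII-high libraries. All 6 lay more than 10 times above both controls, and the groups of different MHCII level overlapped at this time. At 4 weeks the MHCII-low libraries held 8523, 12319.8 and 14053. The 4-week MHCII-high libraries held 18779, 24989 and 36775. Both 4-week groups lay wholly above the controls and wholly below the 2-week groups, and at 4 weeks the MHCII-high libraries lay wholly above the MHCII-low ones.

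**Figure D1:**
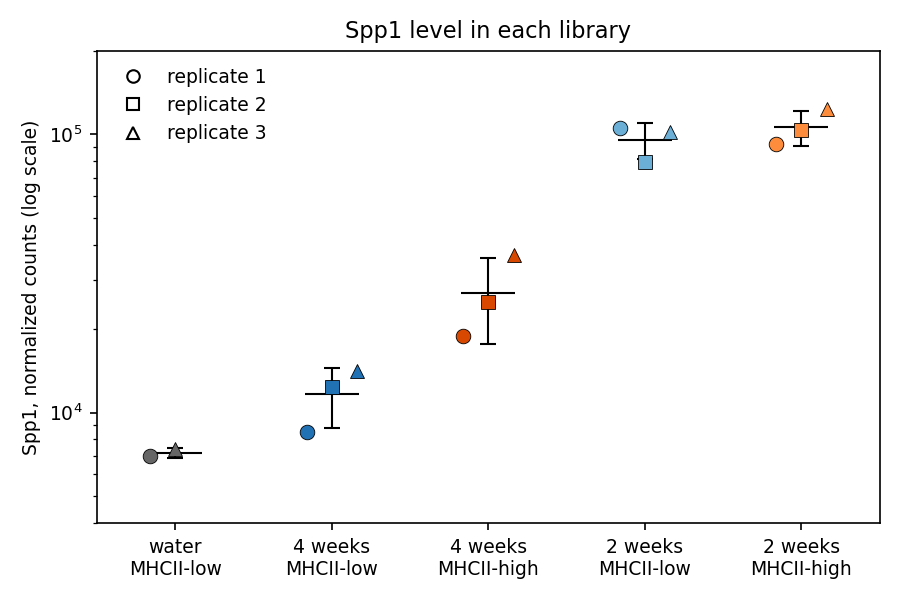
Spp1 in each library, in normalized counts on a log axis. Symbols are libraries by replicate number, the long bar is the group mean and the whiskers are 1 SD. The 2 controls lie at 6964 and 7388, and only the 2-week MHCII-low and MHCII-high libraries overlap.

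Group means were 7176 ± 300 normalized counts in controls (SD, n = 2), 11632 ± 2830 in 4-week MHCII-low cells, 26848 ± 9140 in 4-week MHCII-high cells, 95788 ± 13900 in 2-week MHCII-low cells and 106449 ± 15500 in 2-week MHCII-high cells (SD, n = 3 each). In that order, each neighbour except the last was separated without overlap. The 4-week MHCII-low group came closest to the controls, with its lowest library at 8523 against 7388. Relative spread was smallest in controls (CV 4.18%) and largest in 4-week MHCII-high cells (34.0%). In bulk RNA, fewer cells of a type and less RNA per cell cannot be told apart, and this holds for each level given here.

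On the log2(value + 1) scale, Spp1 in MHCII-low cells was 3.73 ± 0.13 (SE) above control at 2 weeks, which is 13.3-fold. At 4 weeks it was 0.67 ± 0.22 above control, which is 1.59-fold. These SEs for Spp1 come from the libraries of the 2 compared groups alone. The limma SE, the kind given for other genes, was 0.24 for both differences. Of all 17390 genes tested, 13.7% were higher without overlap at 2 weeks and 11.4% at 4 weeks. The difference of 4 against 2 weeks was -3.06 ± 0.25 in MHCII-low cells and -2.03 ± 0.31 in MHCII-high cells (-2.29 without the library that stands apart). Lower at 4 weeks without overlap were 6.76% of genes in MHCII-low and 9.06% in MHCII-high cells. The MHCII-high level at 4 weeks still stood 1.85 ± 0.28 above the MHCII-low control (1.59 without that library), which is 3.6-fold, with 11.8% of genes higher without overlap. At 2 weeks that difference was 3.88 ± 0.13, with 16.7% of genes higher without overlap. Across MHCII levels and times, 4-week MHCII-high cells were at -1.88 ± 0.31 against 2-week MHCII-low cells, or -2.13 without that library (9.82% of genes lower without overlap). In turn 2-week MHCII-high cells were 3.21 ± 0.25 above 4-week MHCII-low cells (13.4% higher without overlap). These comparisons share the control or the 2-week libraries.

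Between MHCII levels, Spp1 differed by 0.15 ± 0.17 at 2 weeks, less than its spread, and by 1.18 ± 0.35 at 4 weeks, which is 2.27-fold. At 4 weeks 8.26% of genes were higher in MHCII-high cells without overlap. Without the library that stands apart, the 4-week MHCII-high mean was 21884 in place of 26848, and the difference between MHCII levels was 0.93. The order of the group means was the same on 3 scales. TMM scaling gave 13.8, 1.66, 14.7 and 3.66 times the control mean for 2-week MHCII-low, 4-week MHCII-low, 2-week MHCII-high and 4-week MHCII-high cells. CPM without mitochondrial ribosomal RNA gave 11.6, 1.54, 13.5 and 3.56 times, and the deposited scale gave 13.3, 1.62, 14.8 and 3.74 times.

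As a share of reads without mitochondrial ribosomal RNA, Spp1 took 0.0251% and 0.0259% in controls and 0.302% to 0.386% in 2-week MHCII-high libraries. The library with the fewest Spp1 reads, control replicate 3, held 8582 of them, and its exact binomial interval ran from 0.02456% to 0.02562%. In the deepest Spp1 sample, 2-week MHCII-low replicate 3, 185103 reads gave 0.328% with an interval of 0.3267% to 0.3297%. These intervals (95%, Clopper-Pearson) cover counting error only, since amplified reads without molecular identifiers are not independent molecules. The differences between replicates of a bleomycin group were wider than these intervals.

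Per kilobase of exon, Spp1 moved from the upper ranks of the transcriptome to its top. Among 21793 protein-coding genes it ranked 190 and 192 in the controls. In 2-week MHCII-low libraries it ranked 13, 11 and 9, and in 2-week MHCII-high libraries 11, 8 and 9. By group mean it then stood at rank 11 in MHCII-low cells, with 58124 normalized counts per kb, between mt-Nd2 at 59225 and the ferritin subunit gene Fth1 at 56766. In 2-week MHCII-high cells it was at rank 10 with 64593 per kb, just behind mt-Nd5 (67562) and the beta-actin gene Actb (67664). At 4 weeks it ranked 180, 111 and 102 in MHCII-low libraries and 57, 39 and 24 in MHCII-high libraries. At 4 weeks the ranks did not overlap between the MHCII levels, and the rank of 180 was the nearest to a control.

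**Figure D2:**
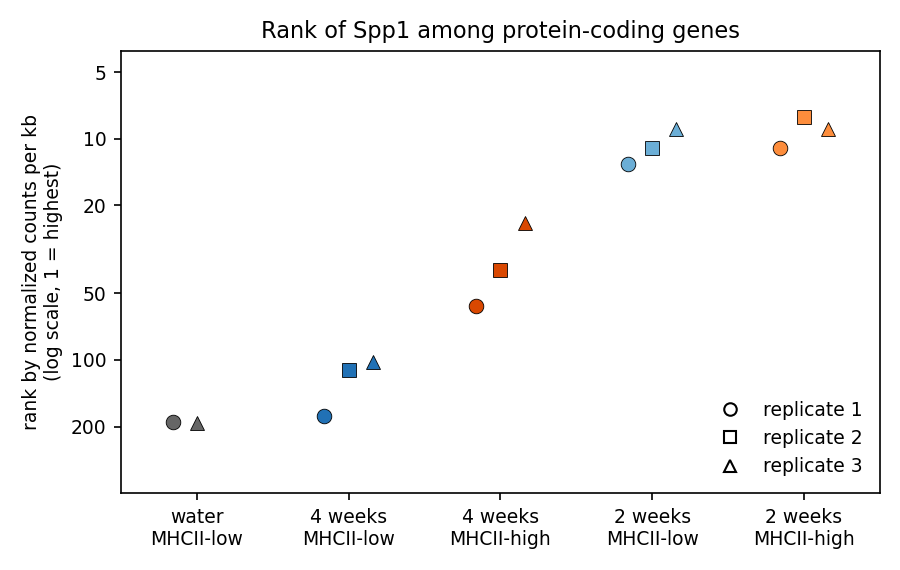
Rank of Spp1 in each library among 21793 protein-coding genes ordered by normalized counts per kb (log axis, rank 1 is the highest and at the top). Symbols are libraries by replicate number. Ranks run from 192 in a control to 8 in a 2-week MHCII-high library.

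The other SIBLING genes lie beside Spp1 on chromosome 5 and encode proteins of dentin and bone matrix. Dspp (104170712 to 104180127), Dmp1 (104202613 to 104214102) and Ibsp (104299171 to 104311469) had 0 reads in all 14 libraries. Mepe (104325329 to 104338611) had 1 read in 1 library, at 0.9 normalized counts. The limit that a count of 0 allows, 3 reads, equals 1.17 to 6.71 normalized counts depending on the library, for counting error only. Spp1 was thus the only SIBLING gene with more than 1 read in these cells.

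Of the 5 tested genes nearest to Spp1 on each side, none passed an adjusted p of 0.05 against control at 2 or 4 weeks. Tests of genes other than Spp1 are from limma with Benjamini-Hochberg adjustment over 17390 genes. Pkd2, a cation channel gene 18.4 kb after Spp1, stood at 1687 normalized counts in controls and 1287 in 2-week MHCII-low cells (log2 difference -0.39 ± 0.30, adjusted p = 0.67). Aff1, Klhl8, Hsd17b11, Nudt9 and Sparcl1 before the gene, and BC005561, D930016D06Rik and Zfp951 after it, passed in none of the 6 comparisons. Abcg3, a transporter gene 494 kb after Spp1, was higher in MHCII-high cells by 4.86 ± 1.04 at 2 weeks (adjusted p = 0.011) and by 7.20 ± 1.04 at 4 weeks (adjusted p = 2.5e-04, and 7.3e-04 without the library that stands apart), with 0 to 12.8 normalized counts in the MHCII-low bleomycin libraries and 80.3 to 534.9 in the MHCII-high ones. The 2-week call was lost without MHCII-low or MHCII-high replicate 1 (adjusted p up to 0.066).

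Genes tied to osteopontin were then read from lists: its receptors, the enzymes that cut or modify it, factors known to act on its promoter, the other SIBLING genes, and genes often named with Spp1 in fibrotic macrophages. All 69 were in the table and 60 passed the filter on low values. The 9 that did not were Dspp, Dmp1, Ibsp, Mepe, Mmp7, Plg, Cpb2, Mmp3 and Apoc1, none above 11.6 normalized counts. In MHCII-low cells at 2 weeks, 15 of the 60 were higher than in control and 0 lower, where 1.48% of all genes tested passed as higher and 0.426% as lower. The median difference was 0.38 over the 60 genes and -0.09 over all genes tested. At 4 weeks 1 of the 60, Cd63, was higher than control, where 0.0345% of all genes passed as higher (6 of the 8 that passed, and 2 of 2 in edgeR), and the median was 0.12 against -0.06.

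Between 2 and 4 weeks, 10 of the 60 fell in MHCII-low cells, where 0.748% of all genes fell, and 10 fell in MHCII-high cells, where 0.759% did. No gene of these lists rose over that time in either. The medians were -0.36 and -0.28, against 0.03 and -0.07 over all genes. MHCII-high cells exceeded MHCII-low cells in 6 of the 60 at 2 weeks (2.29% of all genes, 398 of the 499 that passed, and 297 of 432 in edgeR) and in 6 at 4 weeks (1.96% of all genes). In edgeR 6 of the 60 passed at 2 weeks, 4 of them higher, and 6 at 4 weeks, 5 of them higher. The medians over the 60 genes in limma were 0.13 and 0.15, against 0.08 and -0.03 over all genes. Some counts rested on single libraries. Without control replicate 1 the 2-week count against control was 8 in place of 15. Without 2-week MHCII-low replicate 1 or 3 the fall in MHCII-low cells held for 6. The fall in MHCII-high cells held for 4 without 2-week MHCII-high replicate 1 or 3, for 6 without replicate 2 and for 4 without 4-week replicate 1. The 2-week gap between MHCII levels held for 3 of the 6 genes when any 1 MHCII-high library, or replicate 3 of the MHCII-low cells, was left out. Without the 4-week library that stands apart, 5 genes were higher between MHCII levels and 10 fell, 9 of them among the 10 above. Itgb3 (5.95), Mmp12 (2.55), Apoe (3.25), Fn1 (1.02) and Mmp14 (3.33) then still passed as higher in MHCII-high cells (adjusted p up to 0.02). Ets1 did not (adjusted p = 0.057). The lists were drawn up with earlier results of these data known, so the counts are a description.

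**Figure D3:**
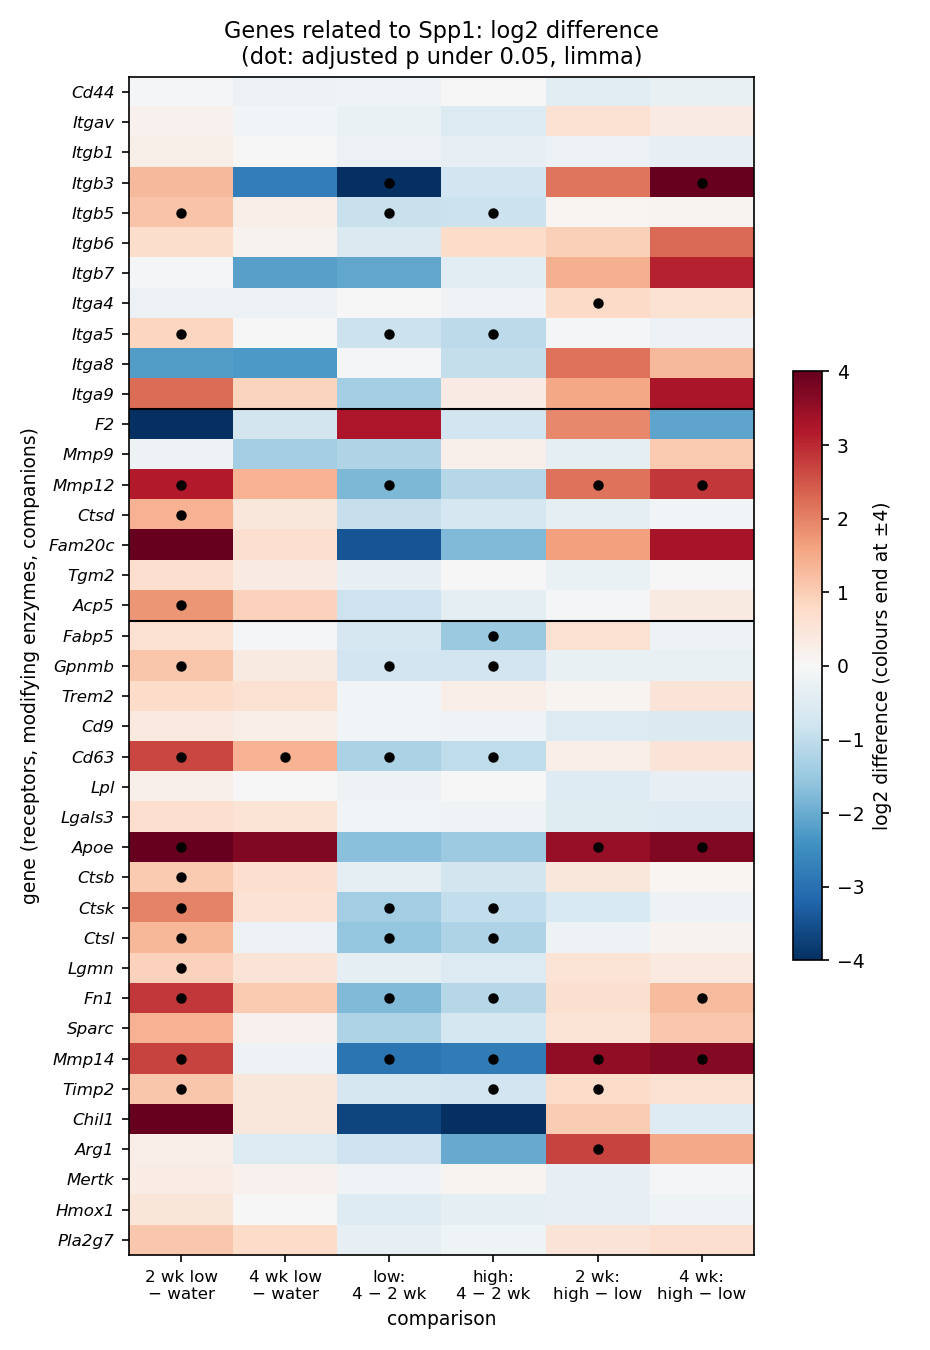
Log2 difference (colour, ends at ±4) of osteopontin receptors, modifying enzymes and companion genes (rows, in blocks) in 6 comparisons (columns). A dot marks an adjusted p under 0.05 in limma. Dots are most frequent in the first column, 2-week MHCII-low cells against water, and none there is on a gene that was lower.

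All 11 receptor genes were tested. Cd44, a receptor of hyaluronan and osteopontin, was the highest per kb, at 27180 normalized counts per kb in controls, followed by the integrin subunit Itgb1 at 5200 and Itga4 at 1024. Cd44 held 189357 and 178981 normalized counts in controls and 190597, 185244 and 159333 in 2-week MHCII-low libraries, with overlap. Its difference there was -0.05 ± 0.19 (adjusted p = 0.96), and it passed in none of the 6 comparisons. In the same libraries Spp1 stood 13.3-fold above control.

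Itga5, the fibronectin receptor subunit that can also bind osteopontin, held 2931 and 3967 normalized counts in controls and 6395, 5951 and 6263 in 2-week MHCII-low libraries. It was higher by 0.86 ± 0.19 at 2 weeks (adjusted p = 0.017), a call lost without control replicate 1 or 2-week replicate 1 or 3 (adjusted p up to 0.37). By 4 weeks it had fallen by 0.86 ± 0.17 in MHCII-low cells (adjusted p = 0.012) and by 1.05 ± 0.17 in MHCII-high cells (adjusted p = 0.0047). The MHCII-low fall was lost without 2-week replicate 1 or 3 or 4-week replicate 2 (adjusted p up to 0.11). Itgb5, a partner of the alpha-v subunit, held 1341 and 1682 normalized counts in controls and 3625, 2995 and 3415 in 2-week MHCII-low libraries. All 3 of these libraries lay above both controls. It was higher by 1.15 ± 0.21 (adjusted p = 0.0028), which was lost without control replicate 1 (adjusted p = 0.11). It fell by 0.88 ± 0.19 in MHCII-low (adjusted p = 0.018) and by 0.85 ± 0.19 in MHCII-high cells (adjusted p = 0.028), and both falls were lost on leaving out any 1 of 4 libraries (adjusted p up to 0.15 and 0.10).

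Itgb3, the other classic alpha-v partner for osteopontin, followed the MHCII sort. At 4 weeks it stood at 0, 7.8 and 2.1 normalized counts in MHCII-low cells and at 141.5, 241.6 and 68.2 in MHCII-high cells. The groups did not overlap, and the difference was 5.47 ± 0.88 (adjusted p = 7.6e-04). At 2 weeks it held 60.4, 49.4 and 41.3 in MHCII-low and 264, 366.2 and 117.3 in MHCII-high libraries, a difference of 2.15 ± 0.88 that did not pass (adjusted p = 0.23). From 2 to 4 weeks it fell by 4.08 ± 0.88 in MHCII-low cells (adjusted p = 0.025), a call lost in edgeR and on leaving out any 1 of 5 libraries (adjusted p up to 0.14). Itga4, which pairs with Itgb1, was higher in MHCII-high cells at 2 weeks by 0.77 ± 0.18 (adjusted p = 0.021), which was lost in edgeR and on leaving out 1 library for 5 of the 6 libraries (adjusted p up to 0.09). Itgav, Itgb1, Itgb6, Itgb7, Itga8 and Itga9 passed in none of the 6 comparisons, and the last 4 stayed at or below 291.7 normalized counts in every library.

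Of the 11 genes of enzymes that cut or modify osteopontin, 7 were tested. Mmp12, a macrophage elastase that also cuts osteopontin, held 994.1 and 576.8 normalized counts in controls and 9596, 5917 and 5680.1 in 2-week MHCII-low libraries. It was higher by 3.18 ± 0.32 (adjusted p = 2.3e-06). In MHCII-high libraries it reached 31119, 29129 and 32295 at 2 weeks, above MHCII-low cells by 2.17 ± 0.29 (adjusted p = 9.6e-05), and at 4 weeks the gap was 2.82 ± 0.29 (adjusted p = 2.2e-06). Unlike Spp1, whose 2-week groups overlapped, all 3 MHCII-high libraries at 2 weeks exceeded all MHCII-low ones. It fell by 1.79 ± 0.29 from 2 to 4 weeks in MHCII-low cells (adjusted p = 0.0014), and by 1.14 ± 0.29 in MHCII-high cells without passing (adjusted p = 0.057).

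Acp5, a phosphatase that can remove phosphate from osteopontin, held 1395 and 1402 normalized counts in controls and 5271, 3312 and 6088 in 2-week MHCII-low libraries. It was higher by 1.76 ± 0.26 (adjusted p = 3.3e-04) and passed in no other comparison. Ctsd, a lysosomal protease, was higher at 2 weeks by 1.38 ± 0.32 (adjusted p = 0.025). Its controls differed, at 197325 and 484857 normalized counts, and the call was lost without control replicate 1 or 2-week replicate 1 (adjusted p up to 0.52). Fam20c, the kinase that phosphorylates secreted proteins including osteopontin, stood at 5.5 and 0 normalized counts in controls and at 33.6, 20.7 and 111.8 in 2-week MHCII-low libraries (4.11 ± 1.14, adjusted p = 0.073). The cross-linking enzyme gene Tgm2, Mmp9 and the thrombin gene F2 passed in no comparison.

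Of the 21 tested genes of transcription factors known to act on Spp1, 0 passed in limma at 2 or 4 weeks against control, with 3 and 4 at an unadjusted p under 0.05, and 0 in edgeR at both times. Of all genes, 12.7% and 6.1% had an unadjusted p under 0.05 in those comparisons. Between 2 and 4 weeks 0 passed in either MHCII level in limma (1 and 3 unadjusted, against 1300 and 2426 of all 17390 genes, and 0 and 0 in edgeR). Stat3, a signal transducer of cytokine receptors, came closest against control, with 9825 and 12458 normalized counts in controls and 15456, 17483 and 17911 in 2-week MHCII-low libraries (0.61 ± 0.17, adjusted p = 0.069). Runx2, the bone factor whose family motif stands in the promoter shown, differed by -0.15 ± 0.22 (adjusted p = 0.85). The nuclear receptor gene Nr1h3 differed by 1.33 ± 0.41 (adjusted p = 0.11). Between MHCII levels 0 passed at 2 weeks (5 unadjusted, against 15.4% of all genes, and 1 in edgeR). At 4 weeks 1 passed, Ets1, higher by 2.51 ± 0.67 (adjusted p = 0.048), and it was lost in edgeR and on leaving out any 1 of 4 libraries (adjusted p up to 0.24).

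Among the companion genes 21 of 22 were tested, and 10 were higher at 2 weeks in MHCII-low cells than in control. Fn1, the matrix protein fibronectin, held 27741 and 32671 normalized counts in controls and 196439, 201037 and 242793 in 2-week MHCII-low libraries. It was higher by 2.82 ± 0.23 (adjusted p = 2.0e-07) and fell by 1.78 ± 0.21 by 4 weeks (adjusted p = 4.6e-05). In 4-week MHCII-high cells it held 111804, 140178 and 213533 against 57653, 58146 and 70257 in MHCII-low cells, a difference of 1.28 ± 0.21 (adjusted p = 9.0e-04). Its 4-week groups separated by MHCII level without overlap, as those of Spp1 did. Fn1 also fell in MHCII-high cells, by 1.15 ± 0.21 (adjusted p = 0.0091), which was lost without 2-week MHCII-high replicate 3 (adjusted p = 0.063).

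Cd63, a tetraspanin of late endosomes, held 472.9 and 592.3 normalized counts in controls and 3443, 2594 and 4241 in 2-week MHCII-low libraries. The MHCII-low libraries of 4 weeks lay between, at 1178, 1221 and 1855. It was higher than control by 2.66 ± 0.24 at 2 weeks (adjusted p = 4.5e-07) and by 1.39 ± 0.24 at 4 weeks (adjusted p = 0.029). The 4-week call was lost in edgeR and on leaving out any 1 of 4 of the 5 libraries (adjusted p up to 0.35). It fell from 2 to 4 weeks by 1.28 ± 0.21 in MHCII-low cells (adjusted p = 0.0020). Ctsk, a lysosomal collagenase, was higher at 2 weeks by 1.97 ± 0.19 (adjusted p = 9.6e-07) and fell by 1.38 ± 0.17 in MHCII-low (adjusted p = 5.5e-05) and by 0.98 ± 0.17 in MHCII-high cells (adjusted p = 0.0063). Gpnmb, a glycoprotein of lysosome-rich macrophages, was higher by 1.12 ± 0.18 (adjusted p = 0.0011). Its 2-week libraries, at 113845, 81059.8 and 93319 normalized counts, lay above both controls, at 40420.3 and 47149.9.

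Apoe, the lipid carrier, and Mmp14, a membrane-bound collagenase, were higher than control at 2 weeks in MHCII-low cells, and higher in MHCII-high than in MHCII-low cells at both times. Apoe held 44.4 and 2.6 normalized counts in controls and 539.2, 229.3 and 1139.8 in 2-week MHCII-low libraries (5.35 ± 0.76, adjusted p = 2.4e-04). In 2-week MHCII-high libraries it held 4823, 5185 and 7878, above MHCII-low cells by 3.48 ± 0.68 (adjusted p = 0.0056). Mmp14 held 29.2 and 54.2 normalized counts in controls, 201.4, 264.3 and 351.3 in 2-week MHCII-low and 3229.7, 2738 and 3484 in 2-week MHCII-high libraries. All 3 MHCII-high libraries lay above every MHCII-low one. It was higher in MHCII-low cells at 2 weeks by 2.71 ± 0.45 (adjusted p = 0.0014, lost without control replicate 1 at 0.060), and in MHCII-high over MHCII-low cells by 3.56 ± 0.40 at 2 weeks (adjusted p = 1.4e-05) and by 3.66 ± 0.40 at 4 weeks (adjusted p = 5.8e-06). Apoe at 4 weeks differed by 3.69 ± 0.68 (adjusted p = 0.0029).

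The other companions higher at 2 weeks were the protease genes Ctsb, Ctsl and Lgmn and the inhibitor Timp2, by 0.91 to 1.33. Each was lost without at least 1 library (adjusted p up to 0.28). Timp2 and Arg1, the arginase of alternatively activated macrophages, were also higher in MHCII-high cells at 2 weeks, by 0.72 ± 0.18 (adjusted p = 0.035) and 2.69 ± 0.70 (adjusted p = 0.039). The Timp2 call was lost in edgeR, with TMM factors and on leaving out any 1 of 5 libraries. The Arg1 call was lost with the replicate as a block and on leaving out any 1 of 6 libraries. Both were also lost without the filter on low values and with the mitochondrial ribosomal RNA share as a covariate. Trem2, a lipid-sensing receptor often named with Spp1, stood at 1821 ± 121 (SD, n = 2) normalized counts in controls against 3056 at 2 weeks in MHCII-low cells. The difference of 0.73 ± 0.23 did not pass (adjusted p = 0.12). Lpl, Lgals3 and Cd9 passed in no comparison. For no gene of these lists did the difference between MHCII levels change from 2 to 4 weeks past the test (smallest adjusted p = 0.71, with 2 at an unadjusted p under 0.05). The interaction called 0 of all 17390 genes in limma (987 unadjusted), and it was not run in edgeR.

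Genes whose levels followed Spp1 most closely were ranked by Pearson r over the 14 libraries on the log2 scale, among 9993 genes with a mean of at least 100 normalized counts. The libraries fall into groups and share their depth and scaling, so r is given as a description. The most alike was Nrp2, a co-receptor of semaphorins and growth factors (r = 0.977, rho = 0.943). It held 4323 and 4923.5 normalized counts in controls, 21537, 21338 and 23877 in 2-week MHCII-low and 23387, 20870.3 and 25916 in 2-week MHCII-high libraries. At 4 weeks it held 6409, 7973 and 10594 in MHCII-low and 9162, 13004 and 12908 in MHCII-high libraries. Like Spp1 it overlapped between MHCII levels at 2 weeks, but unlike Spp1 it overlapped at 4 weeks too. Within groups, after removal of each group's mean, its r with Spp1 was 0.79.

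Among the others of the 10 most alike were Msmo1, a sterol monooxygenase gene (r = 0.965), Idi1, an isomerase gene of the isoprenoid pathway (r = 0.962), and Sqle, the squalene epoxidase gene (r = 0.955). Msmo1 held 774 and 676.7 normalized counts in controls and 3126, 3406 and 4113 in 2-week MHCII-low libraries. At 4 weeks MHCII-low libraries held 876.4, 1184 and 945.7. Its 2-week libraries lay above all libraries of both other groups of MHCII-low cells. Within groups the r of Sqle with Spp1 was 0.04, so its likeness to Spp1 rested on the group means. For Msmo1 and Idi1 it was 0.58 and 0.57.

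Also among them were Cd93 (r = 0.956), Nt5e (0.953), Anpep (0.952), Fn1 (0.952) and Atp6v1a (0.948). Cd93 is a phagocyte surface lectin, Nt5e makes adenosine from AMP, Anpep is the surface peptidase CD13, and Atp6v1a is a subunit of the lysosomal proton pump. The r of these 5 without the controls, the libraries farthest from the median of Spp1, was 0.933 to 0.964. Of the 10 genes, 3 stayed among the top 10 by Spearman rho, and 4 did without 2-week MHCII-low replicate 1. The genes that opposed Spp1 most were Tlr5 (r = -0.932), Rasgrf2 (-0.919), Cpne5 (-0.917), Mylip (-0.915) and Dnah11 (-0.913). Tlr5, the flagellin receptor, held 1906 and 1606 normalized counts in controls, and 171.9, 140.9 and 238.9 in 2-week MHCII-high libraries. Mylip, which marks the LDL receptor for breakdown, had a mean of 3768 in controls and 964.5 in 2-week MHCII-high cells.

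**Figure D4:**
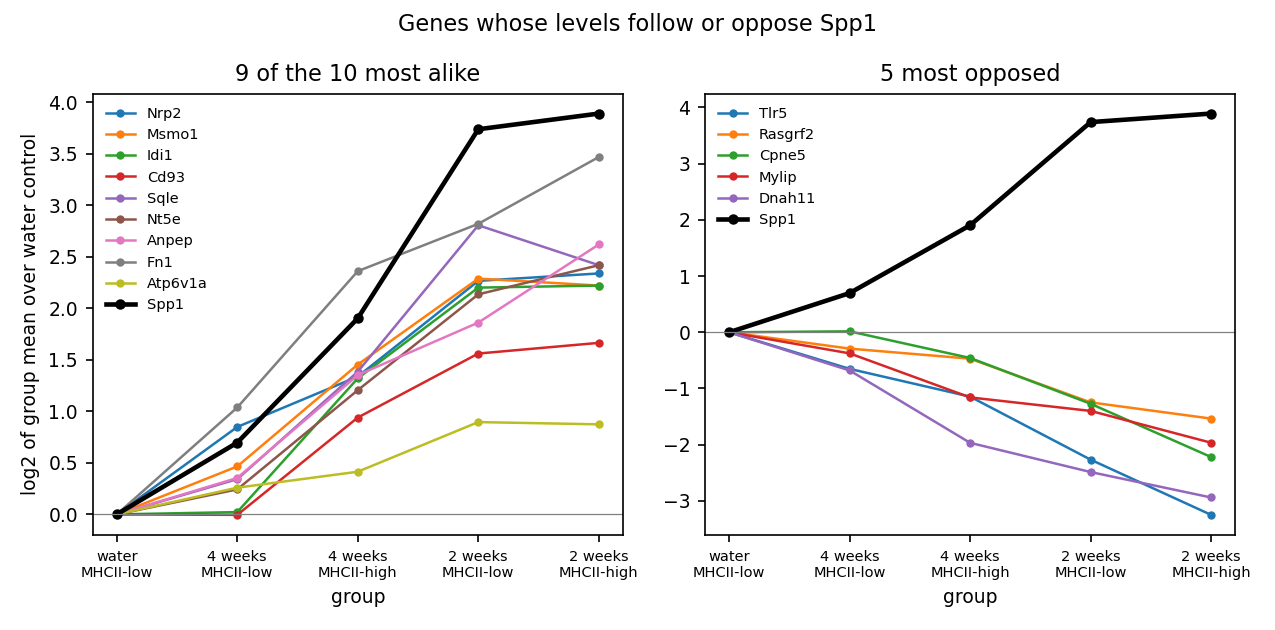
Log2 of each group mean over the water-control mean for Spp1 (black) with 9 of the 10 most alike genes (left) and the 5 most opposed (right), groups ordered by their Spp1 mean. Points are group means, and the lines join them for reading only. Spp1 spans more than any of the other 14 genes drawn, from the control at 0 to the 2-week MHCII-high cells.

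Markers of other cells were read beside these levels. The 10 monocyte-derived or interstitial macrophage markers summed to 16459 to 19004 normalized counts in controls, 30180 to 35859 in 2-week and 17890 to 22365 in 4-week MHCII-low libraries, and 64003 to 76211 and 36466 to 43237 in 2-week and 4-week MHCII-high libraries. At 2 weeks this sum did not overlap between MHCII levels, while Spp1 did. In the 2-week comparison with control 7 of the 10 were higher (limma, adjusted p under 0.05), the same direction as Spp1, where 1.48% of all genes were. Ccr2 (0.39 ± 0.21, adjusted p = 0.46), Cx3cr1 (0.41 ± 0.52, adjusted p = 0.82) and Ly6c2 (1.78 ± 1.39, adjusted p = 0.67) did not pass. In these 2 groups the sum was mostly the gene Csf1r, with a mean of 14120 in controls and 23904 in 2-week MHCII-low cells. Of the 6 neutrophil markers 5 were tested and 1 was higher at 2 weeks, against the same 1.48%. They were mostly the chemokine receptor gene Cxcr2 and summed to 734 to 1346 in controls, 3610 to 5150 in 2-week MHCII-low and 2872 to 5053 in 2-week MHCII-high libraries, against 810 to 1977 at 4 weeks. The neutrophil marker Ly6g was at 0 in 4-week MHCII-low and 2-week MHCII-high cells. The 8 alveolar epithelium markers summed to 10314 to 19932 in controls and to 4048 to 11802 in 2-week MHCII-low libraries, with overlap. That sum was mostly the club cell gene Scgb1a1, with a mean of 13791 in controls and 4640 in 2-week MHCII-low cells (adjusted p = 0.40). The surfactant gene Sftpc, which defines alveolar type II cells, was the 1 of the 8 that was higher there, by 3.47 ± 0.59 (adjusted p = 0.0017). It held 169.4 and 39.6 normalized counts in controls and 1763.1, 504.8 and 873.8 in 2-week MHCII-low libraries. It was also higher in MHCII-high than in MHCII-low cells, by 2.03 ± 0.53 at 2 weeks (adjusted p = 0.038) and by 3.21 ± 0.53 at 4 weeks (adjusted p = 9.0e-04). The 7 dendritic cell markers summed to 76.7 to 250 in MHCII-low libraries, controls included. In MHCII-high libraries they summed to 866 to 1912 at 2 weeks and to 1145 to 2115 at 4 weeks. In MHCII-high against MHCII-low cells, 3 were higher at 2 weeks and 4 at 4 weeks, where 2.29% and 1.96% of all genes were (limma). Of 8 B and T lymphocyte markers, 1 was higher and 1 lower there at 2 weeks, and 3 were higher and 0 lower at 4 weeks. Eosinophils also carry SiglecF, and of their 4 markers Prg2 was at 0 in every group. The 4 summed to 25.8 to 46 in controls and to 20.3 to 71.5 in MHCII-low bleomycin libraries. In MHCII-high libraries they summed to 62.6 to 230 at 2 weeks, above both controls, and to 35.3 to 131 at 4 weeks. Of the 3 tested, 0 passed in any comparison (limma). The part of these cells in the Spp1 levels was not tested.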

How the data were processed

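RNA-seq was read in 14 libraries of sorted mouse lung cells. Per the file headers, the deposited values are a signal, namely gene counts that the authors scaled per library (normalized counts). The submitters' processing notes name STAR, DESeq2 and the build mm10, without versions or roles. A GC content column in percent was deposited by the authors and not used. From the values, each library's column was read as whole multiples of 1 step (0.39 to 2.24). Whole reads lay within the rounding of 0.05 for 100% of the values checked, the 10750 to 13687 low nonzero values of a library. Spp1 lay above the values checked, so its read numbers rest on the same step. The recovered reads served for depth, CPM, shares and the count test.

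The planned test for counts was edgeR's; since the table is normalized, limma 3.58.1 in R 4.3.3 was fitted to log2(value + 1) with a mean-variance trend, 1 coefficient per group and all 14 libraries. A gene entered the test when 2 or more libraries reached 10 normalized counts (17390 genes), with Benjamini-Hochberg adjustment in each of 6 comparisons and a threshold of 0.05. For genes other than Spp1, adjusted p-values and their ± (SE) are from limma unless edgeR is named. The SE of a Spp1 difference comes from the libraries of the 2 compared groups alone, so it is not pooled over all groups. The log2(value + 1) scale understates changes of low genes. Quasi-likelihood tests in edgeR 4.0.16 on the recovered reads called 306, 2, 432, 366, 138 and 112 genes, where limma called 332, 8, 499, 434, 149 and 186. The order is 2-week and 4-week MHCII-low against control, MHCII-high against low at 2 and 4 weeks, and 4 against 2 weeks in MHCII-low and MHCII-high cells. The fits were checked on data simulated with the same dispersion for every gene. That check does not measure how stable the calls here are.

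Spp1, its related lists and the markers were chosen with earlier results of these data known. Named were Spp1, all tested SIBLING, receptor and enzyme genes, the members of the regulator and companion lists with the smallest p or past the threshold, the 5 tested neighbours on each side, and the 10 most and 5 least alike genes by Pearson r. A gene that meets this rule is not reported here. The labels name 2 cell sorters without saying which sample used which, so that sorter and group cannot be told apart. Alternatives were another pseudocount, no filter, TMM factors, edgeR, a replicate block, leaving out each library and, added after seeing the data, the mitochondrial ribosomal RNA share as a covariate.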

Additional observations from a re-analysis of the deposited data

How the results depend on the processing

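All 70 values of the Spp1 log2 difference under these alternatives stayed within the replicate SD of 0.31 of those reported. Some of them could hardly move. The filter and the pseudocount do not bear on a gene this high, and the replicate block left differences between bleomycin groups as they were. The smaller difference of 0.67, 4-week MHCII-low cells against control, ran from 0.51 to 0.88 when 1 library was left out. Counts of genes past the threshold moved more. In what follows the count over all genes comes first and that over the 60 Spp1-related genes second, each of calls in either direction. Leaving out 1 library gave 127 to 308 and 8 to 15 for 2-week MHCII-low cells against control, 1 to 8 and 0 to 1 for 4-week MHCII-low cells against control, 203 to 455 and 3 to 6 between MHCII levels at 2 weeks, 266 to 480 and 5 to 7 between them at 4 weeks, 95 to 138 and 6 to 10 for 4 against 2 weeks in MHCII-low cells, and 64 to 299 and 4 to 10 in MHCII-high cells. Where 1 control is left out, the other is assumed to vary like the rest.

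Without the filter on low values the counts were 65 (7 higher, in place of 6 of 8) and 1 for 4-week MHCII-low cells against control, 316 and 3 between MHCII levels at 2 weeks, 282 and 5 at 4 weeks, and 103 and 4 for 4 against 2 weeks in MHCII-high cells. More genes are tested there. In edgeR the counts were 2 and 0 for 4-week MHCII-low cells against control, and 112 and 9 for 4 against 2 weeks in MHCII-high cells. With the mitochondrial ribosomal RNA share as a covariate, an alternative chosen after seeing the data, the counts were 213 and 11 for 2-week MHCII-low cells against control, 2 and 0 at 4 weeks, and 207 and 5 between MHCII levels at 2 weeks. The cause of these shifts was not tested.

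The labels do not say whether MHCII-high and MHCII-low samples of the same replicate number shared a mouse. The correlations that follow are too small to decide it. Same-numbered MHCII-high and MHCII-low libraries correlated at 0.01 to 0.11 in their deviations from the group means, other pairs at -0.12 to 0.08, and 4 of 6 MHCII-high libraries correlated best with their own number. With the replicate number as a block the counts were 416 and 18 for 2-week MHCII-low cells against control, 16 and 3 at 4 weeks, 487 and 8 between MHCII levels at 2 weeks, 429 and 8 at 4 weeks, 171 and 11 for 4 against 2 weeks in MHCII-low cells, and 202 and 11 in MHCII-high cells. The Spp1 differences under the block were 3.76, 0.69, 0.15, 1.18, -3.06 and -2.03 in that order. No value of any alternative changed its sign.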
